A study of Zea mays and Triticum urartu with 3 samples.

Results

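The loci described here lay at the ends of the 10 maize chromosomes. A locus was taken as subtelomeric when its midpoint was within 1 Mb of position 0, or within 1 Mb of the largest locus end that was listed for its chromosome in either maize table. By this rule, 585 of 45374 loci belonged to the ends in the RNA immunoprecipitation (RIP) table, where 45242 loci were nuclear. In the input table, 576 of 46011 loci belonged to the ends, and 45818 were nuclear. The ends made up 0.9497% of the listed chromosome length. The true chromosome lengths are not in these tables, so the high-coordinate ends were set by the last listed locus.

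To capture RNA held by centromeric chromatin, the study cross-linked young leaves of the maize inbred line B73, broke the chromatin down with DNase I and precipitated it with an antibody to CENH3. The RIP library held the RNA recovered in this way. The input library came from young leaves of the same genotype, and the label field for the antibody is empty for it. Its extraction text, however, is that of the RIP library and describes the anti-CENH3 precipitation, so the labels do not settle that input was made without it, on which the meaning of every ratio of RIP to input rests. A wild wheat library completes the series and was not used here.

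Subtelomeres are the outermost stretches of a chromosome, next to the telomere repeats that cap it. In maize they belong to the gene-rich distal parts of the arms and also hold blocks of tandem repeats and transposable elements. CENH3 replaces histone H3 in the nucleosomes of the centromere, on which the kinetochore is built, so subtelomeres lie away from the chromatin that the antibody is directed at.

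Each group was 1 library, so no difference described below has a replicate check, and no p-value was computed. The deposited unit was FPKM, a fragment number scaled to transcript length and to the fragments of the library. The upper confidence limit of an FPKM depends on how many fragments it rests on, and the number derived from it is called implied fragments. The nuclear loci held 456322 implied fragments in RIP and 716933 in input. In input, 1 locus on chromosome 10 held 369288 of them, whereas the highest nuclear locus of RIP, on chromosome 7, held 23556. Intervals of shares and ratios are 95% intervals that cover counting error only. Whether leaf marker genes were present could not be checked, because the tables do not pair identifiers with gene names.

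Most subtelomeric loci held few fragments in either library. Implied fragments were above 0 at 367 RIP loci (62.7%) and at 263 input loci (45.7%) of the ends, against 60.7% and 40.8% of the other nuclear loci. The median of the loci above 0 was 4.26 implied fragments in RIP and 6 in input. Only 90 RIP loci and 97 input loci of the ends had 10 or more, and these were 1.66% and 1.45% of all such nuclear loci. Of the 90, 84.4% carried an identifier of loci assembled from the reads, as did 85.6% of the 97. These shares were near those elsewhere in the nuclear genome, 79.1% in RIP and 83.2% in input. Loci are called assembled here by identifier alone, and some lie on annotated genes. The locus 8:622332-625467, for example, has such an identifier in RIP and a gene identifier in input. Their median span was 1460 bp in RIP and 2635 bp in input, against 2750 bp and 3083 bp elsewhere in the nuclear genome.

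The ends as a whole held 3930.2 implied fragments in RIP, or 0.861% of the nuclear total (Wilson interval 0.835% to 0.889%). They held 2688.9 in input, or 0.375% (0.361% to 0.390%). This gap in share rested on a few loci elsewhere in the genome. The ends rose to 0.908% of RIP and 0.773% of input when the nuclear locus with the most fragments of each library was left out. They came to 1.20% and 1.15% when the 10 highest nuclear loci of each were left out. The ratio of RIP to input fragments was 1.46 over all ends. It was 0.633 over the other nuclear loci, and 1.24 there once the highest locus of each library was left out.

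The 20 ends differed from each other. Fragments were more numerous in RIP at 13 of them, with the interval of the ratio above 1 at 10 ends and below 1 at 4, and the median ratio was 1.27. These ratios were not divided by a library total, so 1 is not a reference value. The other nuclear loci had ratios of 0.633 and, without the highest locus of each library, 1.24, and the median of the ends was near the latter. The interval lay above 0.633 at 17 ends and below it at none, and it lay above 1.24 at 7 ends and below it at 6. The low-coordinate end of chromosome 9 stood farthest apart, with 480.9 implied fragments in RIP and 35.8 in input, a ratio of 13.4 (9.52 to 19.3). Leaving out the highest locus of each library there gave a ratio of 9.74. Both ends of chromosome 6 were also higher in RIP. The high end held 115.3 fragments in RIP against 27.8 in input, a ratio of 4.15 (2.70 to 6.45), and the low end 56.3 against 15.8, a ratio of 3.57 (1.98 to 6.54). The low end of chromosome 1 held the most RIP fragments of all ends, 486.2 against 198.7 in input, a ratio of 2.45 (2.07 to 2.90). The lowest ratio was 0.649 (0.504 to 0.836) at the high end of chromosome 9, with 105.6 fragments in RIP and 162.7 in input. The opposite ends of chromosome 9 thus held the highest and the lowest ratio of the 20. The low-coordinate ends together held 2274.1 fragments in RIP and 1226.3 in input, and the high-coordinate ends 1656.1 and 1462.6.

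**Figure D1:**
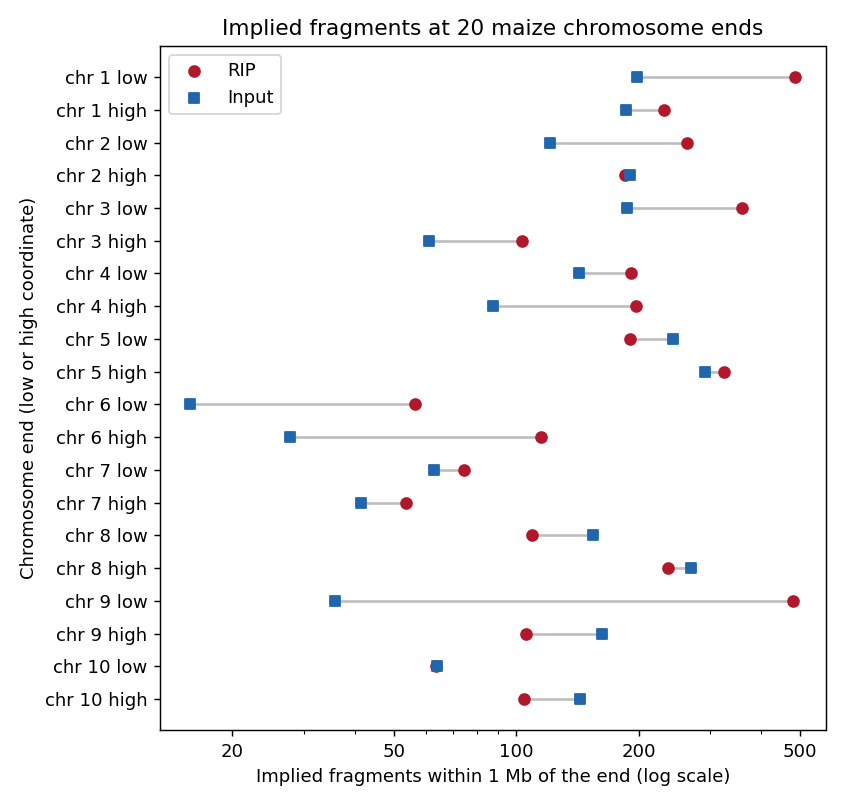
Implied fragments (log scale) summed over the loci within 1 Mb of each of the 20 chromosome ends, with RIP as circles and input as squares, joined by a line for each end. RIP lies to the right of input at 13 ends, and the widest gap, 480.9 against 35.8, is at the low-coordinate end of chromosome 9.

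A single locus carried much of the signal at several ends. At the low end of chromosome 4, 1 locus (4:921608-923738) accounted for 87.9% of RIP and 89.6% of input fragments. At the low end of chromosome 3, 1 locus held 58.8% of the RIP fragments, and the ratio of that end moved from 1.92 to 1.01 when the highest locus of each library was left out. When this was done at every end, 15 of 20 had more fragments in RIP.

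Loci seen in both tables were examined next, to ask whether RNA from the ends was over-represented after precipitation. Of 540 pairs with both loci at the ends, 192 (35.6%) were above 0 in both libraries, and 181 (33.5%) were at 0 in both. A further 132 (24.4%) were above 0 in RIP and listed at 0 in input, and 35 (6.48%) the reverse. The other nuclear pairs fell into these classes at 34.4%, 36.8%, 25.03% and 3.76%, respectively.

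Ratios were taken at the 58 subtelomeric pairs that held 20 or more implied fragments in sum, a library at 0 being set to 3 fragments, which applied to 5 of them. Input held more fragments at 40 of the 58 and RIP at 18. Among the other nuclear pairs, RIP held more at 41.0%, so input led at most pairs there too. The median was 12.4 fragments in RIP and 19.2 in input. The median log2 ratio of RIP to input was −0.61, with quartiles of −1.33 and 0.29. It was −0.31 over all 4398 nuclear pairs and −0.35 over other nuclear pairs weighted to the same numbers of fragments. The distance of the end pairs from the nuclear median, −0.29, was small beside the spread of the pairs. It depended on the filter, being 0.0019 with pairs of 10 or more fragments and −0.79 with the 12 pairs of 50 or more.

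Ratios at least 2-fold above the nuclear median were found at 10 of the 58 pairs (17.2%), against 24.6% of the other nuclear pairs and 23.2% of those at equal fragments. Ratios at least 2-fold below it were found at 15 (25.9%), against 21.5% and 22.0%. Both shares were near the background, and their order against it depended on the filter. With pairs of 10 or more fragments, 37 of 122 (30.3%) were above, against 25.99% at equal fragments. With FPKM and a pseudocount of 0.1, 31 of 113 (27.4%) were above, against 19.8%.

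FPKM itself gave another picture of the level. At the 58 pairs, the median FPKM was 0.326 in RIP and 4.30 in input, and the confidence limits of the 2 tables lay apart with input higher at 50 pairs and with RIP higher at 1. Among the other nuclear pairs these shares were 88.8% and 2.58%, so the offset was not particular to the ends. At 4:921608-923738, for example, 168 implied fragments in RIP gave 2.26 FPKM, and 128 in input gave 40.7 FPKM. The scaling of the tables thus differed, and levels were compared here by implied fragments.

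**Figure D2:**
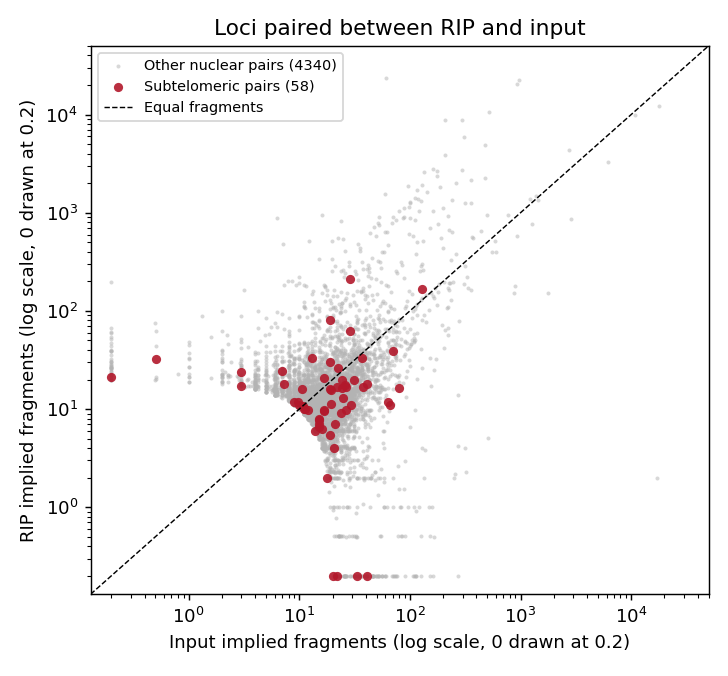
Implied fragments in input (horizontal, log scale) and in RIP (vertical, log scale) for nuclear pairs with 20 or more fragments in sum, a value of 0 being drawn at 0.2. The 58 subtelomeric pairs (large points) lie within the cloud of 4340 other nuclear pairs (small points), with 40 below the dashed line of equal fragments and 18 above it. Of the other nuclear pairs, 41.0% lie above this line.

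The 10 subtelomeric pairs with the most fragments differed in both directions. The first was 4:921608-923738, with a ratio of 1.31 (1.04 to 1.67). The second was the annotated gene Zm00001d039258 on chromosome 3 (3:697981-701289), with 211.3 implied fragments (3.88 FPKM) in RIP and 28.5 (20.6 FPKM) in input, a ratio of 7.41 (4.92 to 11.1). Input lists this locus under an assembled identifier at the same coordinates. The interval of its ratio lay above that of 4:921608-923738. The locus that overlaps its end (3:701136-705353) went the other way, being listed at 0 in RIP with 22 fragments in input, and how fragments were divided between such overlapping loci was not tested.

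At the high end of chromosome 5, 2 of the 10 pairs had opposite ratios. The locus 5:223226269-223236491 held 39.1 fragments in RIP and 70.6 in input, a ratio of 0.553 (0.362 to 0.823). The locus 5:223257247-223277123 held 80 in RIP and 19.1 in input, a ratio of 4.19 (2.53 to 7.36). These were 665.3 kb and 628.8 kb from the end, with shorter loci of both tables between them.

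Among the rest of the 10, only 1:306096938-306104725 was higher in RIP, with 62.4 fragments against 28.8 (ratio 2.17, 1.36 to 3.45). The locus 2:243428038-243433183 held 16.4 fragments in RIP and 80.2 in input, a ratio of 0.204 (0.109 to 0.345). The locus 8:622332-625467 held 10.9 and 66.3, a ratio of 0.164 (0.0794 to 0.318). These were 2 of the 4 lowest ratios in this group. The locus 9:159480993-159515420 held 11.8 fragments in RIP and 63.9 in input, a ratio of 0.185 (0.0921 to 0.351). The locus 3:916629-921348 held 17.9 and 41.0, a ratio of 0.436 (0.237 to 0.782). The remaining locus, 8:557368-565138, could not be told apart between the libraries, with 33.2 and 36.8 fragments and a ratio of 0.902 (0.541 to 1.47).

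The most extreme ratios rested on few fragments in the lower library. The highest was at 1:306759808-306765932, with 32 implied fragments in RIP and 0.513 in input. No ratio is given for it, because the input value was below 1 fragment. The locus 9:159051867-159053940 followed, with 24 fragments against 3 (ratio 8.00, 2.43 to 41.5). The locus 7:181798165-181799397 held 17 against 3 (ratio 5.67, 1.64 to 30.2). The annotated gene Zm00001d034969 on chromosome 6 (6:387465-388055) had 21 fragments in RIP and was listed at 0 in input. These widths show that the order of the high ratios was not resolved at this depth.

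The 5 lowest ratios included 4 loci that RIP listed at 0. The annotated gene Zm00001d012773 (8:180621908-180623041) held 40.6 fragments (57.4 FPKM) in input, and Zm00001d012772 (8:180571569-180572723) held 33.4 (45.5 FPKM). Both are on the high end of chromosome 8, and input lists the latter under an assembled identifier at the same coordinates. The others at 0 in RIP were 3:701136-705353 and 5:92538-93596, with 22 and 20 fragments in input. At 4:246132178-246132864, RIP held 2 fragments and input 18, a ratio of 0.111 (0.0125 to 0.464).

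Loci with no counterpart above 0 in the other library set the ends apart more than the ratios did. Of the 90 subtelomeric RIP loci with 10 or more implied fragments, 35 (38.9%, Wilson interval 29.5% to 49.2%) overlapped no input locus above 0. This share was 17.8% among the other nuclear RIP loci and 17.9% when these were weighted to equal fragments. From the input side, 26 of 97 loci (26.8%, 19.0% to 36.4%) overlapped no RIP locus above 0, against 14.5% of the other nuclear input loci and 14.2% at equal fragments. The share of one-library loci was thus higher at the ends in both libraries. Of the 35 RIP loci, 29 overlapped no listed input locus, and 6 overlapped input loci listed at 0. Of the 26 input loci, 20 and 6 did so, respectively. A locus absent from a table has no value there, so no fold change is given for it.

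One-library loci were short and mostly assembled from the reads, at the ends and elsewhere in the nuclear genome. The 35 RIP loci had a median span of 879 bp, against 3309 bp for the 55 shared ones, and 33 of them spanned under 2000 bp. All 26 input loci spanned under 2000 bp, with a median of 383 bp, against 5152 bp for the 71 shared ones. Elsewhere, the median span of one-library loci was 1221 bp in RIP and 485 bp in input. Spans under 2000 bp were found there at 748 of 954 RIP-only and 873 of 953 input-only loci. When the other nuclear loci were weighted to equal fragments and equal span, their one-library share was 22.1% in RIP and 17.2% in input, against 38.9% and 26.8% at the ends. Assembled loci made up 32 of the 35 and 23 of the 26, against 790 of 954 and 884 of 953 elsewhere. Some loci lay on top of each other, since 13 of the 90 RIP loci and 11 of the 97 input loci overlapped another locus of the same table.

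The 2 sets differed in depth. The RIP-only loci held 1397.2 implied fragments, or 35.6% of all RIP fragments of the ends against 7.63% elsewhere, with a median of 21.0 and a highest value of 219.6. The input-only loci held 462.1, or 17.2% of the input fragments of the ends, with a median of 15.0 and a highest value of 42.0. Elsewhere the input-only loci held 63.4% of the input fragments, and 24.1% without the highest locus. By fragments the ends thus stood above the other loci in RIP. No order is drawn for input, because the 5 highest loci elsewhere held 63.39% of the input fragments there and only 1 was left out. Among RIP loci with 50 or more fragments, 9 of 14 (64.3%) at the ends had no input counterpart, against 8.76% of the other nuclear loci. Among input loci of that depth it was 0 of 5, against 11.8%, so the higher share of input-only loci at the ends was not seen there, in 5 loci.

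The sets also differed in whether implied fragments came out whole. Of the 35 RIP-only loci, 34.3% had values within 0.02 of a whole number, against 72.5% of the one-library RIP loci elsewhere. Among the 26 input-only loci, 88.5% did, against 87.8% elsewhere. A value that is not whole can arise where fragments are shared among transcripts or mapping positions, and which of these applied was not tested. Among RIP loci with whole values, 12 of 39 (30.8%) at the ends and 24.9% elsewhere had no input counterpart. Among RIP loci with values that were not whole, 23 of 51 (45.1%) did, against 10.2% elsewhere. The excess of RIP-only loci at the ends was thus mainly one of loci whose fragments did not come out whole. In input, the shares were 23 of 53 (43.4%) against 23.3% for whole values, and 3 of 44 (6.82%) against 3.88% for the others.

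Many of the RIP-only loci lay at the very tips. Within 50 kb of the end, 15 of 17 RIP loci with 10 or more fragments (88.2%) had no input locus above 0. This is a description, since the distance was chosen after the values were seen and adjacent assembled pieces were counted as separate loci. They held 768.4 fragments, 14 of them lay within 10 kb, and all 15 were assembled loci of 207 to 2037 bp without whole values. In input, 1 of 5 loci in the same space had no RIP counterpart. Without the outermost 50 kb, the share at the ends was 27.4% in RIP (20 of 73), against 18.3% at equal fragments. In input it was 27.2% (25 of 92), against 14.3%. The gap in RIP was thus smaller without the tips. What remained of it rested on 20 loci and was not tested.

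The 15 tip loci came from 5 of the 20 ends. At the low end of chromosome 9, 5 loci between positions 1573 and 9251 held 427.1 of the 480.9 RIP fragments of that end, whereas the outermost input locus above 0 lay 63.2 kb from position 0. The highest of them, 9:1573-2755, had 219.6 implied fragments (15.7 FPKM), the most of any subtelomeric RIP locus. The next, 9:8168-9251, had 83.8 (6.70 FPKM). At the high end of chromosome 8, the last listed locus (8:181121938-181122463) held 70.4 fragments (16.2 FPKM). At the high end of chromosome 4, 4:246990029-246990670 held 63.4 (10.5 FPKM). The high ends of chromosomes 5 and 6 held the others.

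At the high ends of chromosomes 4, 5, 6 and 8, the last listed locus, which sets the end, was itself a RIP-only locus. Input's outermost listed loci there lay 51.1 kb, 101.9 kb, 78.7 kb and 37.9 kb inside it. At chromosomes 4, 5 and 6, input thus listed no locus with its midpoint in the outermost 50 kb. With ends set by the input table alone, the RIP-only share was 35 of 91 (38.5%) and the input-only share 26 of 98 (26.5%). This moved ends inward and kept every locus beyond them, so it could not remove a RIP-only locus. The share within 50 kb was not computed with these ends. Leaving out the low end of chromosome 9 gave 35.7% and 26.8%.

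**Figure D3:**
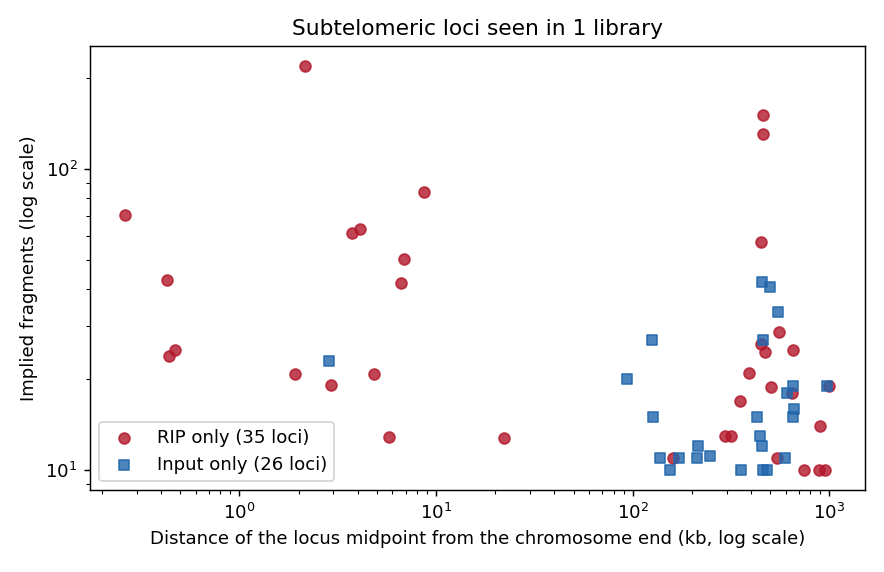
Implied fragments (vertical, log scale) of the subtelomeric loci with 10 or more fragments and no counterpart above 0 in the other library, against the distance of the midpoint from the chromosome end (horizontal, kb, log scale). RIP-only loci (35 circles) include 14 within 10 kb of the end, where input has 1 (squares, 26 in all), and reach 219.6 fragments against 42.0 in input.

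A second group of RIP-only loci lay farther in. Between 440 and 470 kb from the low ends, 4 RIP-only loci held 364.5 fragments, and no input-only locus was found there. All 4 lay on chromosomes 1 and 2, those of chromosome 1 being neighbouring pieces between positions 448143 and 459016. At the high ends, the same distances held 1 RIP-only locus, with 24.7 fragments, and 5 input-only loci, with 104.0 in all, each of them on chromosome 8. The highest were 1:458253-459016, with 150.6 implied fragments (19.3 FPKM), and 2:456348-458801, with 130.5 (4.01 FPKM). The former held 31.0% of the RIP fragments of the low end of chromosome 1 and the latter 49.6% of those of the low end of chromosome 2. These distances too were chosen after the values were seen.

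The input-only loci were concentrated at other ends. Of the 26, 7 lay at the high end of chromosome 8 and 7 at the high end of chromosome 5. Many had RIP loci nearby, since the nearest RIP locus above 0 was a median of 14.0 kb away (0.177 to 116.8 kb). For the RIP-only loci, the nearest input locus above 0 was a median of 55.0 kb away (0.224 to 660.3 kb). On chromosome 8, 8:180670141-180671185 held 42 implied fragments (23.8 FPKM) and 8:180662588-180663801 held 27 (12.7 FPKM). Without this end, the input-only share was 21.8%, against 14.2% at equal fragments. On chromosome 9, 9:159565852-159566587 held 27 fragments (24.7 FPKM), at the end where input exceeded RIP most. The 1 input-only locus of the outermost 50 kb was 5:2280-3437, with 23 fragments (11.5 FPKM). RIP-only loci were found at 12 of the 20 ends and input-only loci at 9, with both at 5 ends and neither at 4.

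The share of one-library loci was then followed inward from the ends. In RIP it was 10.0% (1 of 10 loci) from 0.05 to 0.25 Mb, 52.9% (9 of 17) from 0.25 to 0.5 Mb, 24.0% (6 of 25) to 0.75 Mb and 19.0% (4 of 21) to 1 Mb. The first 3 of the RIP steps, tips included, each held under 20 loci, so their order is loose. Beyond the ends it was 14.3% from 1 to 2 Mb, 7.83% from 2 to 5 Mb and 11.6% from 5 to 10 Mb, with 112, 332 and 450 loci, and it was higher again, at 19.3%, among the 4453 loci farther in. In input it was 42.9% (9 of 21) in each of the steps from 0.05 to 0.25 Mb and from 0.25 to 0.5 Mb, 22.2% (6 of 27) to 0.75 Mb and 4.35% (1 of 23) to 1 Mb. It was 10.4%, 10.0% and 10.4% in the 3 steps beyond and 15.4% farther in. Over the whole outer 0.5 Mb, 25 of 44 RIP loci (56.8%, 42.2% to 70.3%) and 19 of 47 input loci (40.4%, 27.6% to 54.7%) were seen in 1 library. The intervals from 1 to 2 Mb were 8.99% to 21.9% in RIP and 6.497% to 16.2% in input. These intervals count adjacent assembled pieces as separate loci, and the 25 RIP loci include the 15 tip loci. Their distance from each other is therefore a description and not a test.

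The median log2 ratio of paired loci took no steady course inward. It was lowest in the steps from 0.05 to 0.75 Mb, each with under 20 pairs. Within 0.05 Mb it was −0.35 (2 pairs). It was −0.76 from 0.05 to 0.25 Mb (10 pairs), −0.63 to 0.5 Mb (9 pairs), −0.72 to 0.75 Mb (18 pairs) and −0.40 to 1 Mb (19 pairs). It was −0.50 from 1 to 2 Mb, −0.42 from 2 to 5 Mb, −0.27 from 5 to 10 Mb and −0.30 farther in, with 98, 337, 411 and 3494 pairs. These steps were small beside the quartiles of the end pairs.

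High shares of one-library loci were not found at the ends alone. In the 10-Mb window of each chromosome with the fewest annotated genes, used as a stand-in for the centromere region, 77 of 184 RIP loci (41.8%, 35.0% to 49.1%) and 83 of 212 input loci (39.2%, 32.8% to 45.9%) had no counterpart. In both libraries the interval overlapped that of the ends. Depth and wholeness differed between the regions, since 61.0% of the RIP-only loci in the windows had whole values, against 34.3% at the ends. The median log2 ratio of the 66 window pairs was −0.21.

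**Figure D4:**
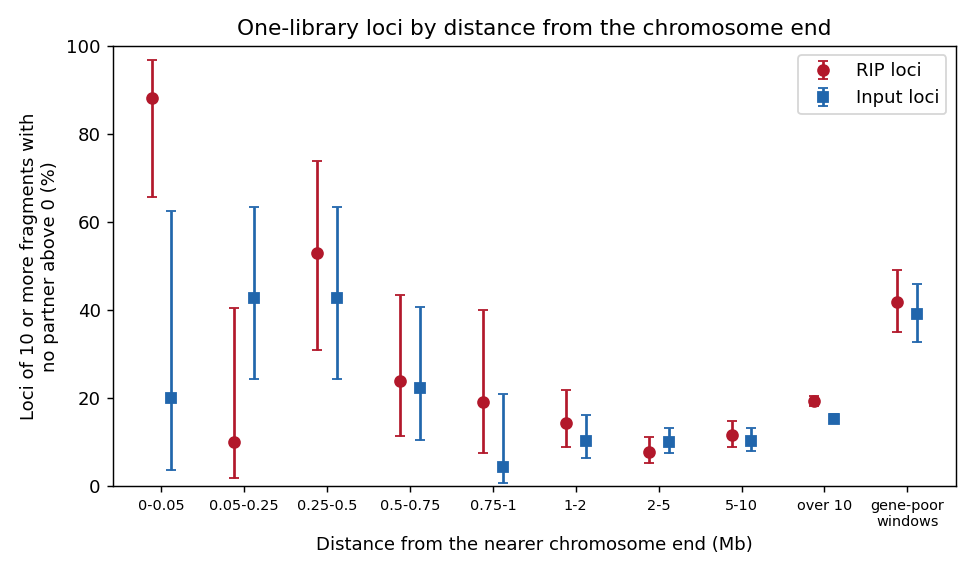
Percent of loci with 10 or more implied fragments that had no counterpart above 0 in the other library (vertical), by distance from the nearer chromosome end (horizontal, steps in Mb) and in the gene-poor windows, with RIP as circles and input as squares. Bars are Wilson 95% intervals for counting error, the outermost step was chosen after the values were seen, and RIP stands at 88.2% in the outermost 50 kb against 7.83% from 2 to 5 Mb.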

How the data were processed

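RNA of B73 leaves was compared between 1 RIP and 1 input library. The deposited FPKM values and their limits were made by the authors with Cufflinks (version not given in the sources used here). The submitters' processing notes also name CASAVA and TopHat2 2.0.12, and the build B73 RefGen_v4, in which positions are given with starts counted from 1. The assembled loci of the RIP table carry a prefix other than the sample title, and that table lists 0 chloroplast loci against 54 in input. Whether both were filtered alike is not given in the sources used here, which bears on every one-library locus.

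Implied fragments were (2 × FPKM/(upper limit − FPKM)) squared, whole within 0.02 at 58.1% of RIP and 56.3% of input loci above 0. They are estimates over listed loci and no raw count was used. Loci were paired by identifier, identical coordinates or reciprocal overlap of at least 0.5. One-library loci overlapped nothing above 0 by 1 bp or more. Background loci were weighted to the members' fragments in bins of 1 on the log2 scale. Ratio intervals were exact binomial intervals of the fragments, rounded to whole numbers. Gene-poor windows were set in 1-Mb steps outside the outer 10 Mb.

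Named were the 10 pairs with the most fragments, the 5 highest and 5 lowest ratios (300 bp or more, 20 or more fragments), the 5 highest one-library loci of each table, and the highest locus of the end with the most fragments in each library. Members, windows and rules were chosen with earlier results of these data known. Alternatives varied the distance, filters, unit, pseudocount, overlap, chromosome end and the highest loci. Python 3.11.15, numpy 2.4.6, pandas 2.3.3, scipy 1.17.1 and matplotlib 3.10.9 were used, and the steps were tested on simulated data. The wheat table was left out.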

Additional observations from a re-analysis of the deposited data

How the results depend on the processing

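Of 73 values under alternatives, 39 moved little and 34 moved by more than the counting error or 1.5 times. The order against the background turned for the input-only share at 50 or more fragments (0% against 10.7% at equal fragments), and for the pairs 2-fold above or below it depended on the filter, the distance and the unit. With ends of 0.5 Mb, the fragment shares were 0.456% in RIP and 0.159% in input, and the one-library shares were 56.8% and 40.4%. Of 21 pairs, 3 (14.3%) were 2-fold above and 6 (28.6%) below, against 21.4% and 22.4% of other nuclear pairs at equal fragments. With ends of 2 Mb, the fragment shares were 1.89% and 1.06%. The one-library shares were then 25.2% and 16.7%, against 18.15% and 14.4% at equal fragments, so both fell toward the background. Of 156 pairs, 29 (18.6%) were above and 34 (21.8%) below, against 23.8% and 21.8% at equal fragments. With whole implied fragments, the fragment shares were 1.09% and 0.865%, and the input-only share was 43.4%, against 23.5% at equal fragments. Of 10 pairs, 2 (20%) were above and 3 (30%) below, against 26.2% and 24.6% at equal fragments. The fragment shares were 0.908% and 0.773% without the top nuclear locus, 0.814% and 0.357% without the top end locus, and 1.20% and 1.15% without the top 10 nuclear loci. With 10 or more fragments in sum, 37 of 122 pairs (30.3%) were above and 30 (24.6%) below, against 25.99% and 23.97% at equal fragments. With 50 or more, 3 and 5 of 12 were, against 26.05% for each, and their median stood −0.79 from the nuclear median. By FPKM with a pseudocount of 0.1, 31 of 113 pairs (27.4%) were above, against 19.8% at equal fragments. By FPKM with no filter, 85 of 359 (23.7%) were below, against 25.8%. The RIP-only share was 51.3% at 20 or more fragments, 64.3% at 50 or more (input-only 0 of 5, or 0%), and 27.4% without the outermost 50 kb. The RIP-only shares of other nuclear loci at equal fragments were 17.1%, 8.78% and 18.3%, respectively. The median's distance from the nuclear one changed sign with 10 or more fragments in sum (0.0019) and by FPKM with a pseudocount of 1 (0.11) or 0.1 (0.11). The top 10 loci, the outermost 50 kb, single ends and the end set by input were chosen after seeing the data. No paired analysis was possible because each group had 1 library.

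Depth limits these results, as most end loci held under 10 implied fragments. Fragments are not independent molecules, and a difference between 2 libraries is not one between conditions. What separates the libraries besides the antibody cannot be told apart from it.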

Other observations

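Beneath the depth used above, 277 RIP loci and 166 input loci of the ends were above 0 with fewer than 10 implied fragments, holding 982.6 and 608.3 fragments, respectively. The microRNA genes at the ends, zma-MIR393a (2:738724-738849) and zma-MIR171b (5:223360741-223360825), were listed at 0 in both libraries. The highest FPKM of the ends was in loci of 161 and 162 bp. In RIP, 6:173456572-173456732 had 386.6 FPKM from 28.8 implied fragments, and in input, 4:356951-357112 had 687.0 FPKM from 10.0.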
